A study of Homo sapiens with 17 samples.

Results

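The repeats described here lie inside the spans of L1TD1, TERF1, DNMT3B and LIN28B, genes that are active in pluripotent cells. All rows of the deposited repeat table that fall wholly within chr1:62194849-62212328 (L1TD1), chr8:73008856-73048123 (TERF1), chr20:32762385-32809356 (DNMT3B) or chr6:104936616-105083332 (LIN28B), on hg38, were taken. There were 432 such repeats among 3594049 in the table, 44 in L1TD1, 85 in TERF1, 74 in DNMT3B and 229 in LIN28B. The spans had been selected on measured values of these libraries, and the contrast behind that choice is not recorded. Levels and differences in level between groups are therefore given as a description, without a test. Tests were run on the balance of reads between strands and between repeat classes within each span. The balances come from the same reads as the levels, and the choice of the spans may have used them, so their p-values are not independent of that choice.

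The RNA came from N2102Ep cells, a line long established from a human embryonal carcinoma. The 4 groups were RNA recovered with ORF1p (ORF1p RIP, 4 libraries), RNA recovered with ORF2p (ORF2p RIP, 4 libraries), RNA from a mock pull-down (mock IP, 3 libraries) and RNA without pull-down (total RNA, 6 libraries). RIP is the capture of a protein on affinity media followed by sequencing of the RNA that comes with it. No group carried a drug, a knockout or a time point in its labels. The labels of the ORF1p RIP call the cells embryonal and name no clone, and those of the other groups name clone 2/A6. In every comparison with the ORF1p RIP, a difference between the cells therefore cannot be told apart from the pull-down. The mock IP descriptions say mIgG, and no label states whether that matches the antibody of either RIP. The labels do not tie libraries to separate cultures, so p-values measure only the spread between libraries, which may be technical.

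LINE-1 (L1) is the human retrotransposon that still copies itself. ORF1p coats its RNA. ORF2p nicks DNA and copies RNA into it, the RNA of Alu elements included. Most repeats in a gene are old copies that are transcribed with the gene, in introns or untranslated exons, and not from a promoter of their own. L1TD1 encodes an RNA-binding protein of pluripotent cells that derives from the ORF1 of an ancient L1. TERF1 encodes a shelterin protein that binds the double-stranded repeats of telomeres. DNMT3B encodes a DNA methyltransferase that sets new methylation in the early embryo. LIN28B encodes an RNA-binding protein that blocks maturation of let-7 microRNAs.

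All 4 genes are read from the plus strand. RefSeq (GRCh38.p14) gives that strand for L1TD1, LIN28B and DNMT3B, and for TERF1 it is background knowledge. Windows around the transcript starts of L1TD1, DNMT3B and LIN28B are shown because the starts divide DNMT3B and LIN28B into stretches whose levels are given apart below. Each window runs 5′ to 3′ on the plus strand from 250 bases before the start to 50 after it. Capitals mark a match to CTTTGT, or to ACAAAG on the other strand, the core that SOX proteins recognise.
L1TD1, chr1:62194599-62194898: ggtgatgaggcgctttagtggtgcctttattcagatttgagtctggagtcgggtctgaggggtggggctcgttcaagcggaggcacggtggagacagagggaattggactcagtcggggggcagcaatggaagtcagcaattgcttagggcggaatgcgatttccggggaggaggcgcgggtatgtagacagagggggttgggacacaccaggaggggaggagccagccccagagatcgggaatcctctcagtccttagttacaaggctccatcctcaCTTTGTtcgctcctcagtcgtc
DNMT3B, chr20:32779602-32779901: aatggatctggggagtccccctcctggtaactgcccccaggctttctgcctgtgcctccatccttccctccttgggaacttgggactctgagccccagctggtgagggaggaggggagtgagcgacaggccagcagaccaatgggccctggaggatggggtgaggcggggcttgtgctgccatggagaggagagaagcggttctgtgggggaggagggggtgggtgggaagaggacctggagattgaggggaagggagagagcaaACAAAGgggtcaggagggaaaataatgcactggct
LIN28B, chr6:104940715-104941014: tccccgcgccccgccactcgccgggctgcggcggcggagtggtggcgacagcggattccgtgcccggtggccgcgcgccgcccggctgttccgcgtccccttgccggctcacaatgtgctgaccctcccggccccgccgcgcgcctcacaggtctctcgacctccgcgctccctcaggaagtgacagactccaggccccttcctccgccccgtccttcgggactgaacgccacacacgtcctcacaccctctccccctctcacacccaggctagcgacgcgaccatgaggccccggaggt
LIN28B, chr6:104956857-104957156: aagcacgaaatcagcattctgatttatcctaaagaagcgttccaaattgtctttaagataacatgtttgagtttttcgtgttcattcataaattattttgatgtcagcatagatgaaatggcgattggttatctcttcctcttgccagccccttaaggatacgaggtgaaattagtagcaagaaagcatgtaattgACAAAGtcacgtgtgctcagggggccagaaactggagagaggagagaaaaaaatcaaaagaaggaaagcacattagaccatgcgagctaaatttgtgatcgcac

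CTTTGT occurred once in the L1TD1 window, once in the DNMT3B window and once in the downstream LIN28B window, and not in the upstream LIN28B window. It is found on either strand in 16.07% of 35116 RefSeq windows of the same length. Neither the octamer ATGCAAAT (1.774% of windows) nor TATAAA (11.53%) occurred in any of the 4. The upstream LIN28B window was 73% G and C with 37 CpG, and the L1TD1 window was 58% with 14 CpG, the median of all windows. The downstream LIN28B window held 8 CpG and the DNMT3B window 3. No repeat of the 432 overlapped a window. The DNMT3B start shown lies 17467 bases into its span, with 39 repeats before it and 35 after it. For DNMT3B and LIN28B no window at the first base of the span is shown, so the CpG counts are not of that position. In LIN28B, 8 repeats lie before the upstream start, 4 between the starts and 217 after the downstream one.

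The spans differ in what they hold. LINE copies number 11 of 44 in L1TD1, 28 of 85 in TERF1, 10 of 74 in DNMT3B and 78 of 229 in LIN28B. SINE copies, most of them Alu, number 30, 36, 58 and 110 in the same order. LTR elements are few (22 in all, 19 of them in LIN28B), and DNA transposons number 49. Of the 432 repeats, 160 are on the plus strand and 272 on the minus strand. The plus strand holds 49.48% of repeat length in L1TD1, 42.38% in TERF1, 28.91% in DNMT3B and 26.41% in LIN28B. Repeats cover 56.78% of the L1TD1 span and 33.41% of the DNMT3B span.

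Depth and library differences frame all values. Totals over the whole table ran from 7693846 to 19670788 estimated reads per library, and CPM below is the depth-scaled count of edgeR (cpm, with TMM factors). The share of reads in repeats on the gene strand was taken over repeats inside exactly 1 gene span of known strand. Among the ORF1p RIP libraries, replicate 3 stood apart with 50.6%, against 45.1% to 45.8% in its 3 partners. Total RNA fell into 2 series named in the descriptions, b (replicates 1 and 2, 39.5% and 39.7%) and bl (replicates 3 to 6, 50.4% to 52.0%). Because of these, results with ORF1p RIP are also given without replicate 3 where a call or a value turned on it, and balances against total RNA within a series where the call differed there. The ORF2p RIP libraries held 51.5% to 51.9% and the mock IP 43.9% to 45.3%, with 40.3% of repeat length on the gene strand. In this share the ORF2p RIP lay within the range of series bl, and the mock IP between the 2 series. A difference between library series therefore cannot be told apart from the ORF2p pull-down in its comparisons with the mock IP or the ORF1p RIP.

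L1TD1 had the highest level of the 4 spans in the ORF2p RIP and a low level in the ORF1p RIP. Its repeats summed to 37.6, 34.5, 104.0 and 51.0 CPM in the ORF1p RIP libraries. They summed to 4455, 4663, 4346 and 4247 CPM in the ORF2p RIP, against 456.1, 467.8 and 459.8 CPM in the mock IP. Total RNA gave 445.4 and 436.7 CPM in series b, and 1687, 1158, 1263 and 1305 CPM in series bl. Every ORF2p RIP library lay above every other library, and every ORF1p RIP library lay below every other library. In bulk libraries such levels are shares of all repeat reads, and fewer cells with an RNA and less of it per cell cannot be told apart. The fitted log2 change was -3.03 ± 0.42 (SE) for ORF1p RIP over mock IP and 3.26 ± 0.46 for ORF2p RIP over mock IP. Without ORF1p RIP replicate 3 the ORF1p change was -3.49. Over all 16522 gene spans fitted, the medians of these changes were 0.37 and -0.16.

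**Figure D1:**
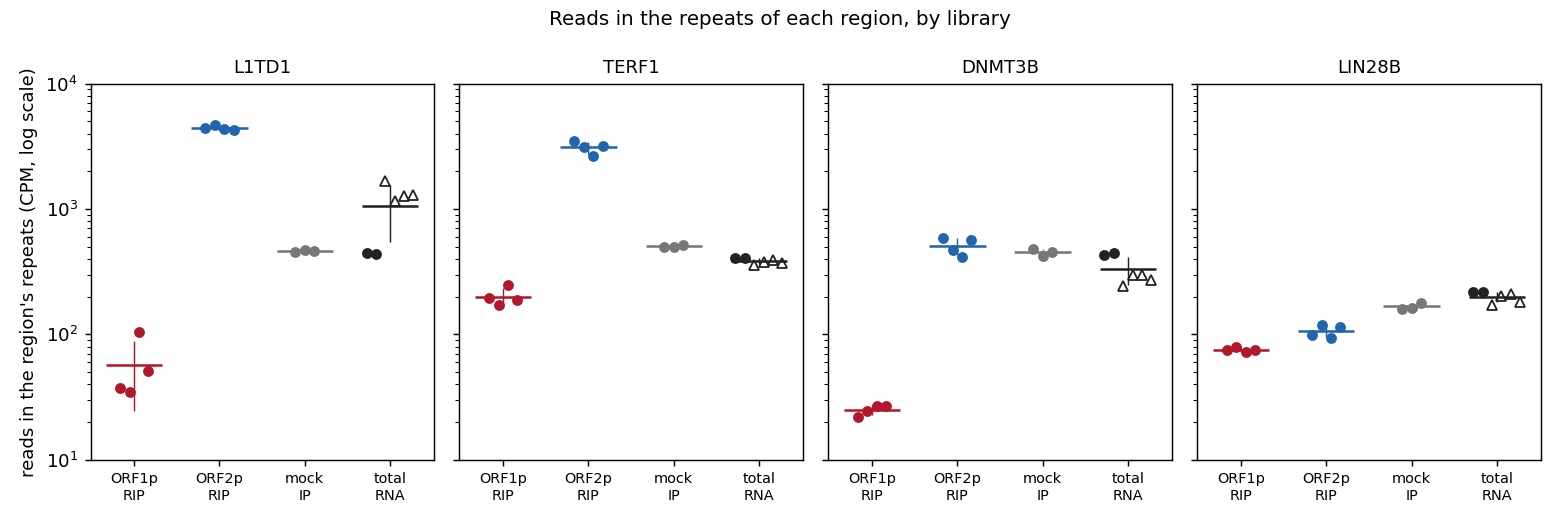
Reads in the repeats of each region per library (CPM, log axis), with the mean as a horizontal line and ±1 SD as a vertical one. Triangles are total RNA of series bl, circles all other libraries. ORF1p RIP is the lowest group in every region, and ORF2p RIP is above all other libraries in L1TD1 and TERF1.

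TERF1 showed the same order of the RIP groups. Its repeats summed to 193.6, 170.1, 249.6 and 188.4 CPM in the ORF1p RIP and to 3484, 3115, 2657 and 3187 CPM in the ORF2p RIP. The mock IP gave 502.3, 498.3 and 512.2 CPM, and total RNA 358.2 to 410.1 CPM with a median of 385.6 CPM. The ORF1p RIP libraries were all below the mock IP and total RNA libraries, and the ORF2p RIP libraries all above them. Fitted log2 changes were -1.33 ± 0.13 for ORF1p RIP over mock IP, 2.62 ± 0.14 for ORF2p RIP over mock IP and 3.96 ± 0.13 for ORF2p RIP over ORF1p RIP.

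DNMT3B was low in the ORF1p RIP, and its ORF2p RIP and mock IP libraries overlapped. Its repeats summed to 22.0, 24.6, 26.7 and 26.99 CPM there, the lowest mean of the 4 spans and 4 groups. The ORF2p RIP gave 585.4, 469.2, 417.3 and 563.6 CPM, and the mock IP 480.4, 425.0 and 456.3 CPM. Total RNA gave 427.4 and 442.3 CPM in series b and 244.8 to 297.1 CPM in series bl. The fitted change was -4.18 ± 0.20 for ORF1p RIP over mock IP and 0.16 ± 0.19 for ORF2p RIP over mock IP. The ORF2p RIP value turned to -0.14 with library totals in place of TMM.

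LIN28B was low in both RIPs. Its 229 repeats summed to 74.6, 78.8, 72.4 and 75.0 CPM in the ORF1p RIP and to 99.8, 118.3, 93.4 and 115.6 CPM in the ORF2p RIP. The mock IP gave 160.4, 163.0 and 177.7 CPM, and total RNA 172.0 to 218.7 CPM. All 8 RIP libraries lay below all 9 others. The fitted change was -1.15 ± 0.12 for ORF1p RIP over mock IP and -0.65 ± 0.11 for ORF2p RIP over mock IP. The span has 65.37 kb of repeats, and per kb of repeat its level in the mock IP, 2.555 CPM, was below that of L1TD1 (46.47), DNMT3B (28.92) and TERF1 (25.96).

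Against total RNA, the changes of ORF1p RIP were -4.21 in L1TD1, -0.95 in TERF1, -3.72 in DNMT3B and -1.41 in LIN28B. Those of ORF2p RIP were 2.08, 3.01, 0.63 and -0.91 in the same order. Both sets share the total RNA libraries, and the changes against mock IP share those of the mock IP. In L1TD1 the change of mock IP over total RNA was 0.06 within series b and -1.55 within series bl. The change of ORF2p RIP over total RNA there was 3.33 within series b and 1.71 within series bl.

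Of the 432 repeats, 98 had enough reads for the fit of single repeats (20 in L1TD1, 46 in TERF1, 20 in DNMT3B and 12 in LIN28B). The remaining 334 did not pass the filter, and 2 of these, both in LIN28B, had no read in any library. A repeat is counted as higher or lower where the adjusted p was under 0.05 and the fitted change at least 2-fold. In ORF1p RIP over mock IP, 0 of the 98 were higher and 87 lower. Over all 71437 repeats fitted, 36.6% were higher and 35.5% lower in that comparison. In ORF2p RIP over mock IP, 14 were higher and 17 lower, against 24.6% and 14.3% of all repeats. In ORF2p RIP over ORF1p RIP, 79 were higher and 1 lower, against 41.1% and 30.7%. Since the spans were chosen on values of these libraries, nothing is read from these counts. A repeat that passed the filter only through a group where it is high had to differ.

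Compared with total RNA, the ORF1p RIP had 0 members higher and 87 lower (37.2% and 37.5% of all repeats). In the ORF2p RIP 29 were higher and 16 lower (27.8% and 21.1%). In the mock IP 3 were higher and 1 lower (5.8% and 2.13%), counts that moved between 0 and 12 and between 0 and 5 as single libraries were left out. All 98 members had a fitted change below 0 in ORF1p RIP over mock IP, with a median of -2.96, against 0.21 over all repeats fitted. The median of ORF2p RIP over mock IP was -0.02, against 0.03 over all.

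In ORF1p RIP over mock IP, the 11 members that were not lower lay in TERF1 (7) and LIN28B (4). In L1TD1 and DNMT3B all 40 repeats fitted were lower. The median change of ORF1p RIP over mock IP was -5.88 in L1TD1, -4.10 in DNMT3B, -1.92 in TERF1 and -1.10 in LIN28B. By class, 32 of 38 LINE copies, 36 of 39 SINE copies, 7 of 7 LTR copies and 12 of 14 DNA transposons were lower. By strand, 34 of 39 on the plus strand and 53 of 59 on the minus strand were lower. Shares by class, strand or span over all repeats are not given here. Nothing is therefore read from these splits or from those of the ORF2p RIP below.

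In the ORF2p RIP the members higher than in the mock IP were 7 LINE, 5 SINE and 2 DNA copies, 6 of them in L1TD1 and 8 in TERF1. The 17 lower ones were 6 LINE, 4 SINE, 5 LTR and 2 DNA copies, 8 in TERF1, 7 in LIN28B and 2 in L1TD1. DNMT3B had none in either direction among its 20.

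**Figure D2:**
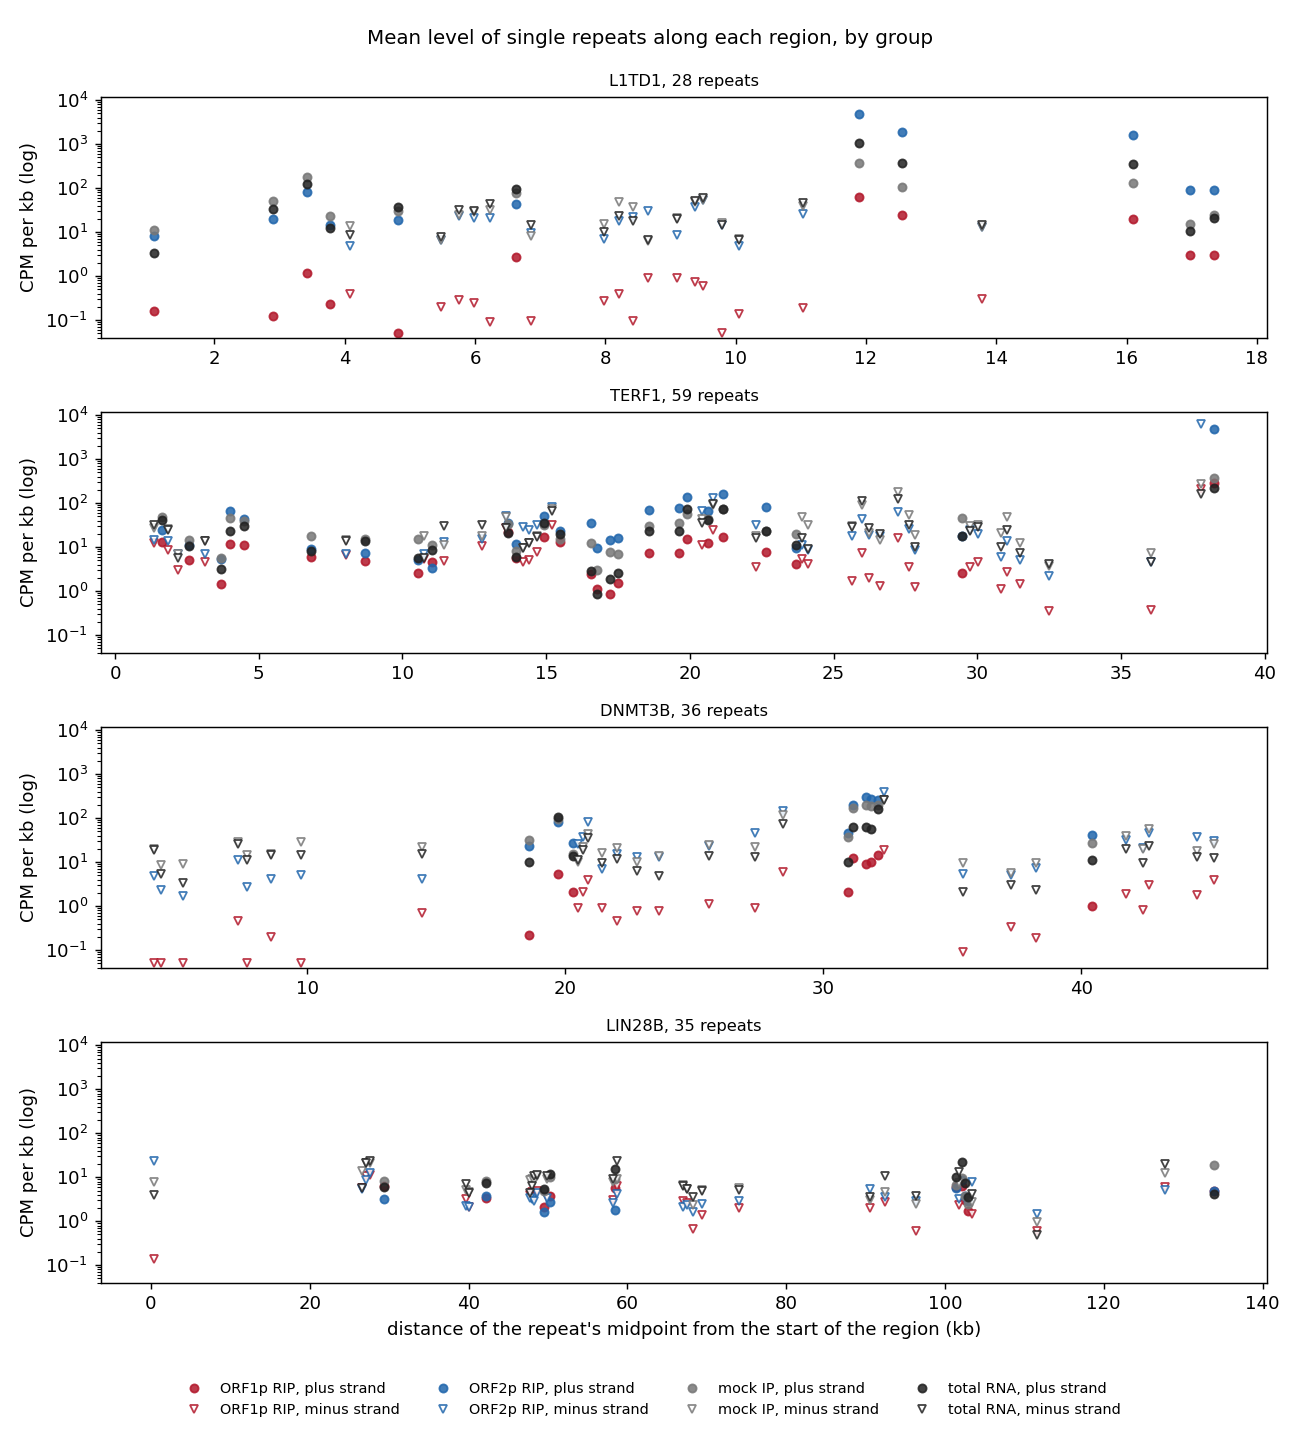
Mean level of single repeats (CPM per kb of repeat, log axis) against the distance of the repeat's midpoint from the start of the region, for the 158 repeats with a mean of at least 1 CPM over the group means. Filled circles are plus-strand repeats and open triangles minus-strand repeats, and values under 0.05 are drawn at 0.05. ORF2p RIP exceeds the other groups in the downstream plus-strand repeats of L1TD1 and in the last pair of repeats of TERF1.

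In L1TD1 nearly all reads of the ORF2p RIP came from 3 plus-strand LINE copies toward the 3′ end of the gene. The shorter L1MEd fragment (chr1:62206564-62206907) had 1793, 1753, 1612 and 1662 CPM in the ORF2p RIP. It had 12.8, 13.7, 40.2 and 21.2 CPM in the ORF1p RIP and 118.3, 136.7 and 127.4 CPM in the mock IP. Total RNA gave 117.9 and 114.3 CPM in series b and 421.3 to 608.2 CPM in series bl. L1MEd is an L1 subfamily of early mammals, and this copy diverges by 25.6% from its consensus.

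The longer L1MEd fragment (chr1:62207100-62207716) had 1282, 1128, 1084 and 1203 CPM in the ORF2p RIP. The ORF1p RIP gave 8.86, 9.44, 31.3 and 10.4 CPM, and the mock IP 62.1, 72.2 and 57.8 CPM. The third copy is HAL1ME (chr1:62210513-62211374), a relative of L1 that carries ORF1 and lacks ORF2. It had 1229, 1655, 1533 and 1257 CPM in the ORF2p RIP and 9.31 to 29.7 CPM in the ORF1p RIP, against 112.3, 123.3 and 102.0 CPM in the mock IP.

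The log2 changes of ORF2p RIP over mock IP for the 3 were 3.74 ± 0.56, 4.20 ± 0.67 and 3.66 ± 0.60 in the order of their positions. Those of ORF1p RIP over mock IP were -2.54 ± 0.50, -2.10 ± 0.58 and -2.74 ± 0.53. Together the 3 copies held 97.06% of the span's reads in the ORF2p RIP, 93.97% in the ORF1p RIP and 65.88% in the mock IP. In total RNA they held 56.24% in series b and 92.17% in series bl. Without them the span averaged 2.874 CPM in the ORF1p RIP, 130 CPM in the ORF2p RIP, 157.2 CPM in the mock IP and 133.5 CPM in total RNA. Whether these copies lie in exons was not analysed here, because no exon annotation was at hand.

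The Alu copies named upstream in L1TD1 had lower means in both RIPs. AluJr (chr1:62198193-62198347, plus strand) had 0, 0, 0.483 and 0.228 CPM in the ORF1p RIP. It had 13.02, 14.4, 7.96 and 15.3 CPM in the ORF2p RIP, against 31.2, 24.9 and 29.2 CPM in the mock IP. AluSx (chr1:62197626-62197875, plus strand) averaged 0.031 ± 0.062 CPM in the ORF1p RIP, 5.08 ± 0.79 CPM in the ORF2p RIP and 13 ± 2.8 CPM in the mock IP (SD, n = 4, 4 and 3). Its change of -8.34 ± 0.75 for ORF1p RIP over mock IP was the lowest of the span, and it rests on a single ORF1p RIP library with reads. AluSz (chr1:62202983-62203125, minus strand) had the lowest change for ORF2p RIP over mock IP, -1.41 ± 0.78, which did not pass the threshold.

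A pair of Alu copies downstream of HAL1ME followed the LINE copies. AluY (chr1:62211684-62211972, plus strand) averaged 26.4 CPM in the ORF2p RIP and 0.864 CPM in the ORF1p RIP, against 4.31 CPM in the mock IP. AluJb (chr1:62212136-62212250, plus strand), the last repeat inside the span, averaged 10.4, 0.345 and 2.77 CPM in the same order. The AluSc just past the end of the span averaged 0.356 CPM in the ORF2p RIP and 0.374 CPM in the mock IP. These copies were singled out after their values were seen.

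In TERF1 the reads of the ORF2p RIP lay in an adjacent pair of repeats near the 3′ end. AluSg (chr8:73046501-73046793, minus strand) ends 1330 bases before the end of the span. It had 2201, 1851, 1511 and 1859 CPM in the ORF2p RIP and 59.4, 44.9, 66.4 and 70.3 CPM in the ORF1p RIP. The mock IP gave 82.1, 76.1 and 85.9 CPM, and total RNA 39.2 to 60.1 CPM. The ORF2p RIP libraries were far above all others, and the ORF1p RIP libraries lay just below those of the mock IP and overlapped total RNA. How the counter divided reads shared between similar copies is not stated. The levels of AluSg and of the other Alu copies named here may depend on it.

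L1PA16 (chr8:73047003-73047189, plus strand), a primate L1 fragment, had 944.0, 900.4, 785.2 and 964.3 CPM in the ORF2p RIP. The ORF1p RIP gave 41.9, 32.8, 95.9 and 40.8 CPM, the mock IP 72.2, 71.6 and 68.6 CPM, and total RNA 33.1 to 56.2 CPM. In ORF1p RIP replicate 3 it was above the mock IP, and in the other 3 libraries below it. The changes of ORF2p RIP over mock IP were 4.51 ± 0.31 for AluSg and 3.67 ± 0.37 for L1PA16. Those of ORF1p RIP over mock IP were -0.43 ± 0.25 and -0.43 ± 0.32 and passed no threshold. The pair held 88.40% of the span's reads in the ORF2p RIP, 55.49% in the ORF1p RIP, 30.17% in the mock IP and 23.42% in total RNA.

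Without that pair, TERF1 averaged 87.33 CPM in the ORF1p RIP, 356.7 CPM in the ORF2p RIP, 352.1 CPM in the mock IP and 296.2 CPM in total RNA. With only repeats at or above the median divergence of the table, which leaves both out, the span's change of ORF2p RIP over mock IP was 0.11 and that of ORF1p RIP over mock IP -2.03. The next repeat downstream, a Kanga1 copy that crosses the end of the span and is no member, averaged 67.5 CPM in the ORF2p RIP and 4.76 CPM in the mock IP.

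Elsewhere in TERF1, L2c (chr8:73028619-73028909, plus strand) had 29.9, 53.3, 41.3 and 32.4 CPM in the ORF2p RIP and 4.16 to 4.97 CPM in the ORF1p RIP. The mock IP gave 17.9, 16.1 and 16.2 CPM. LTR40b (chr8:73036016-73036173, minus strand), an old retroviral LTR, averaged 2.54 ± 0.85 CPM in the ORF1p RIP, 9.77 ± 2.81 CPM in the ORF2p RIP and 29.0 ± 1.2 CPM in the mock IP. AluJb (chr8:73039826-73039950, minus strand) had the lowest change for ORF2p RIP over mock IP, -1.83 ± 0.64. L1MB3 (chr8:73044524-73045235, minus strand) had the lowest for ORF1p RIP over mock IP, -4.25 ± 0.47, and L1ME3C (chr8:73024110-73024583, plus strand) the highest, -0.16 ± 0.35. Of the 10 plus-strand LINE copies fitted, 4 were higher and 2 lower in the ORF2p RIP than in the mock IP. Of the 11 on the minus strand 0 were higher and 3 lower. Over all repeats fitted, 24.6% were higher and 14.3% lower in that comparison, and nothing is read from these counts.

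In DNMT3B the leading repeats were all low in the ORF1p RIP. Tigger7 (chr20:32781608-32782584, plus strand), a DNA transposon, had 4.16, 5.004, 7.08 and 5.02 CPM in the ORF1p RIP. It had 75.0, 85.3, 80.9 and 77.5 CPM in the ORF2p RIP, against 93.1, 103.6 and 89.2 CPM in the mock IP. Its change was -4.17 ± 0.28 for ORF1p RIP over mock IP and -0.26 ± 0.25 for ORF2p RIP over mock IP. Only the ORF1p RIP stood far from the mock IP.

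AluJb, AluSz and Charlie5 lie next to each other further downstream. Charlie5 (chr20:32794648-32794865, minus strand) averaged 4.09 ± 1.31 CPM in the ORF1p RIP, 86.2 ± 19.8 CPM in the ORF2p RIP and 57.2 ± 3.6 CPM in the mock IP. AluSz (chr20:32794400-32794647, plus strand) averaged 3.62 ± 1.95, 64.1 ± 23.7 and 49.96 ± 6.6 CPM in the same groups. AluJb (chr20:32794105-32794371, plus strand) averaged 2.65 ± 0.53, 72.1 ± 14.3 and 49.97 ± 0.80 CPM. In total RNA AluJb had 34.4 and 31.7 CPM in series b and 4.85 to 7.47 CPM in series bl, while AluSz had 29.8 to 53.0 CPM over both.

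AluSx1 (chr20:32789610-32789891, minus strand) had the lowest change of ORF1p RIP over mock IP, -4.58 ± 0.80, and also the highest of ORF2p RIP over mock IP, 1.11 ± 0.62. The shorter Tigger7 piece (chr20:32782583-32782826, plus strand) had the highest change of ORF1p RIP over mock IP, -2.80 ± 0.39. MIR3 (chr20:32804954-32805091, minus strand) had the lowest of ORF2p RIP over mock IP, -0.32 ± 0.84. At the edge of the span, the last L2b inside averaged 2.47 CPM in the ORF2p RIP and 2.07 CPM in the mock IP, and the AluSz6 past the end 0.257 and 1.01 CPM.

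The RefSeq start shown for DNMT3B lies inside the gene span, so the 39 repeats before it are within the gene as annotated, and 35 follow it. Those before it summed to 0.214, 0.324, 0.322 and 0.257 CPM in the ORF1p RIP and to 14.04, 10.7, 8.74 and 7.90 CPM in the ORF2p RIP. The mock IP gave 45.3, 35.5 and 38.8 CPM, and total RNA 67.1 to 69.1 CPM in series b and 11.6 to 14.4 CPM in series bl. Their share of the span's reads averaged 1.11% in the ORF1p RIP, 2.05% in the ORF2p RIP and 8.76% in the mock IP, with 15.67% in series b and 4.71% in series bl of total RNA. Both RIPs were below the mock IP in this stretch, while after the start the ORF2p RIP averaged 498.5 CPM and the mock IP 414.0 CPM.

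The LIN28B reads were spread over many repeats. L2 (chr6:105028173-105030006, minus strand), its leading repeat, had 3.10, 4.84, 9.18 and 2.85 CPM in the ORF1p RIP and 5.75, 5.47, 6.99 and 8.26 CPM in the ORF2p RIP. The mock IP gave 6.66, 8.26 and 10.5 CPM. Total RNA gave 10.8 and 10.4 CPM in series b and 21.8 to 24.8 CPM in series bl. Another L2 (chr6:104995157-104995575, minus strand) averaged 2.71 CPM in the ORF1p RIP, 1.72 CPM in the ORF2p RIP and 3.81 CPM in the mock IP. LTR37A (chr6:105064147-105064546, minus strand) averaged 2.47 ± 1.72, 2.03 ± 0.74 and 5.10 ± 0.52 CPM in the same groups.

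L1PA5 (chr6:105046020-105050320, minus strand) is the long young L1 copy of the span, with 4301 bases and 4.9% divergence. It had 5.33, 7.41, 5.50 and 7.30 CPM in the ORF2p RIP, 1.33, 2.20, 4.81 and 2.04 CPM in the ORF1p RIP and 3.77, 4.81 and 3.75 CPM in the mock IP. Its ORF2p RIP libraries all lay above the mock IP, yet the change of 0.63 ± 0.39 did not reach 2-fold. Near-identical L1PA5 copies share reads, so its level depends on how the counter divided them, which is not stated. Tigger4a (chr6:104994925-104995156, plus strand) had the lowest change of ORF2p RIP over mock IP, -2.26 ± 0.54, and was the 1 member lower in ORF2p RIP over ORF1p RIP, a call lost without ORF1p RIP replicate 3.

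AluJb (chr6:104936825-104937119, minus strand) lies 209 bases into the span, before the upstream start, where the annotation also places LIN28B-AS1 on top of LIN28B. In the ORF1p RIP it had 0.053, 0, 0 and 0.114 CPM. It had 7.13, 5.78, 3.45 and 10.6 CPM in the ORF2p RIP, against 2.20, 1.70 and 2.86 CPM in the mock IP. Its change of 1.59 ± 0.71 for ORF2p RIP over mock IP was the highest of LIN28B, and -5.81 ± 1.19 for ORF1p RIP over mock IP the lowest. The 8 repeats before that start summed to 4.61 to 10.97 CPM in the ORF2p RIP and 3.46 to 3.76 CPM in the mock IP. The 217 repeats after the downstream start summed to 88.8 to 111.7 CPM in the ORF2p RIP and 155.8 to 173.0 CPM in the mock IP. At the end of the span, the last AluSz inside averaged 0.0866 CPM in the ORF2p RIP and 0 in the mock IP, and the MLT1C that crosses its start averaged 0.234 and 0.157 CPM. Whether reads here come from LIN28B or its antisense neighbour cannot be told, since the use of strand in counting is not stated.

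**Figure D3:**
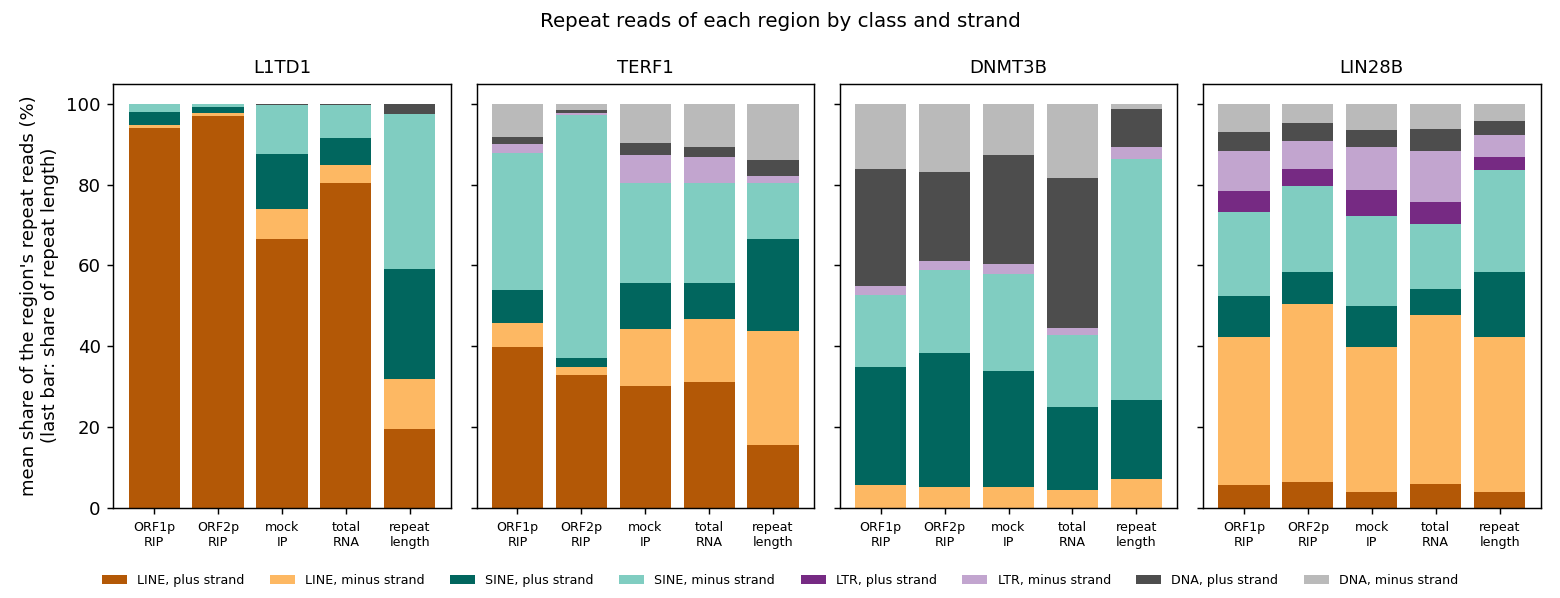
Mean share of each region's repeat reads (%) by repeat class and strand in the 4 groups, beside the share of repeat length in the last bar. Plus-strand LINE copies hold 97.10% of L1TD1 reads in the ORF2p RIP, and minus-strand SINE copies 60.22% of TERF1 reads.

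Plus-strand repeats held 97.21 ± 1.70% of L1TD1 reads in the ORF1p RIP, 98.54 ± 0.15% in the ORF2p RIP and 80.42 ± 2.64% in the mock IP (SD, n = 4, 4 and 3). In TERF1 they held 49.57%, 35.74% and 44.42%, in DNMT3B 58.19%, 55.52% and 55.76%, and in LIN28B 25.94%, 23.09% and 24.81%. The LIN28B shares were close to the share of repeat length on that strand, and those of L1TD1 and DNMT3B were above it.

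The strand balance is the log2 ratio of reads in repeats on the gene strand to those on the other strand, with 5 reads added to each. In these 4 genes that is plus over minus. Of 59679 gene spans used, 32376 had no strand at hand, TERF1 among them, and for these plus over minus was taken. The balance was tested with limma over 8654 gene spans, with p-values adjusted over all of them. In L1TD1 it was 4.84 ± 1.12 in the ORF1p RIP, 6.07 ± 0.14 in the ORF2p RIP and 2.04 ± 0.25 in the mock IP (SD). Total RNA, without pull-down, had 1.31 in series b and 4.31 in series bl. A difference between library series therefore cannot be told apart from the pull-down here. The difference of ORF2p RIP over mock IP was 4.03 ± 0.72 (SE, limma adjusted p = 0.000411). It follows the levels of the strands, whose changes in ORF2p RIP over mock IP were 3.56 on the plus and -0.48 on the minus strand, and is no separate evidence beside them. That of ORF1p RIP over mock IP was 2.79 ± 0.72 (limma adjusted p = 0.00773). Every RIP library was above every mock IP library. The share of all spans that passed was 18.6% for ORF2p RIP over mock IP and 21.4% for ORF1p RIP over mock IP.

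The minus-strand part of L1TD1 rests on 14.8, 10, 2.25 and 13.6 reads in the ORF1p RIP libraries, so that the added 5 reads weigh on it. Without ORF1p RIP replicate 3 the difference of ORF1p RIP over mock IP was 2.24 (limma adjusted p = 0.0303). ORF2p RIP over ORF1p RIP was 1.23 ± 0.67 and did not pass (limma adjusted p = 0.182, 27.9% of spans passing). It passed where only these 2 groups were fitted, with the same difference.

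TERF1 leaned toward the minus strand in the ORF2p RIP. Its strand balance was -0.85 ± 0.13 in the ORF2p RIP, -0.02 ± 0.40 in the ORF1p RIP and -0.32 ± 0.05 in the mock IP. ORF2p RIP over ORF1p RIP was -0.82 ± 0.18 (limma adjusted p = 0.00197), and ORF2p RIP over mock IP was -0.52 ± 0.20 (limma adjusted p = 0.0735). Without the AluSg copy both turned positive, to 1.60 and 2.73 (limma adjusted p = 2.24e-06 and 1.32e-08). AluSg was left out as the leading repeat of these same libraries, and the plus-strand L1PA16 then leads the span. In ORF2p RIP replicate 1, 1283 CPM remained without AluSg and 339.1 CPM without L1PA16 as well. These values restate the level of L1PA16 and are no separate evidence. ORF2p RIP over mock IP passed with -0.52 without ORF1p RIP replicate 3 (limma adjusted p = 0.0226).

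With all libraries and repeats, neither DNMT3B nor LIN28B passed in any of the 6 comparisons of strand balance. In DNMT3B the differences between the RIPs and the mock IP were 0.12 ± 0.23 for ORF1p RIP and -0.01 ± 0.23 for ORF2p RIP. In LIN28B they were 0.11 ± 0.15 and -0.13 ± 0.15. These standard errors bound the precision, and a miss does not show that the balances were alike.

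**Figure D4:**
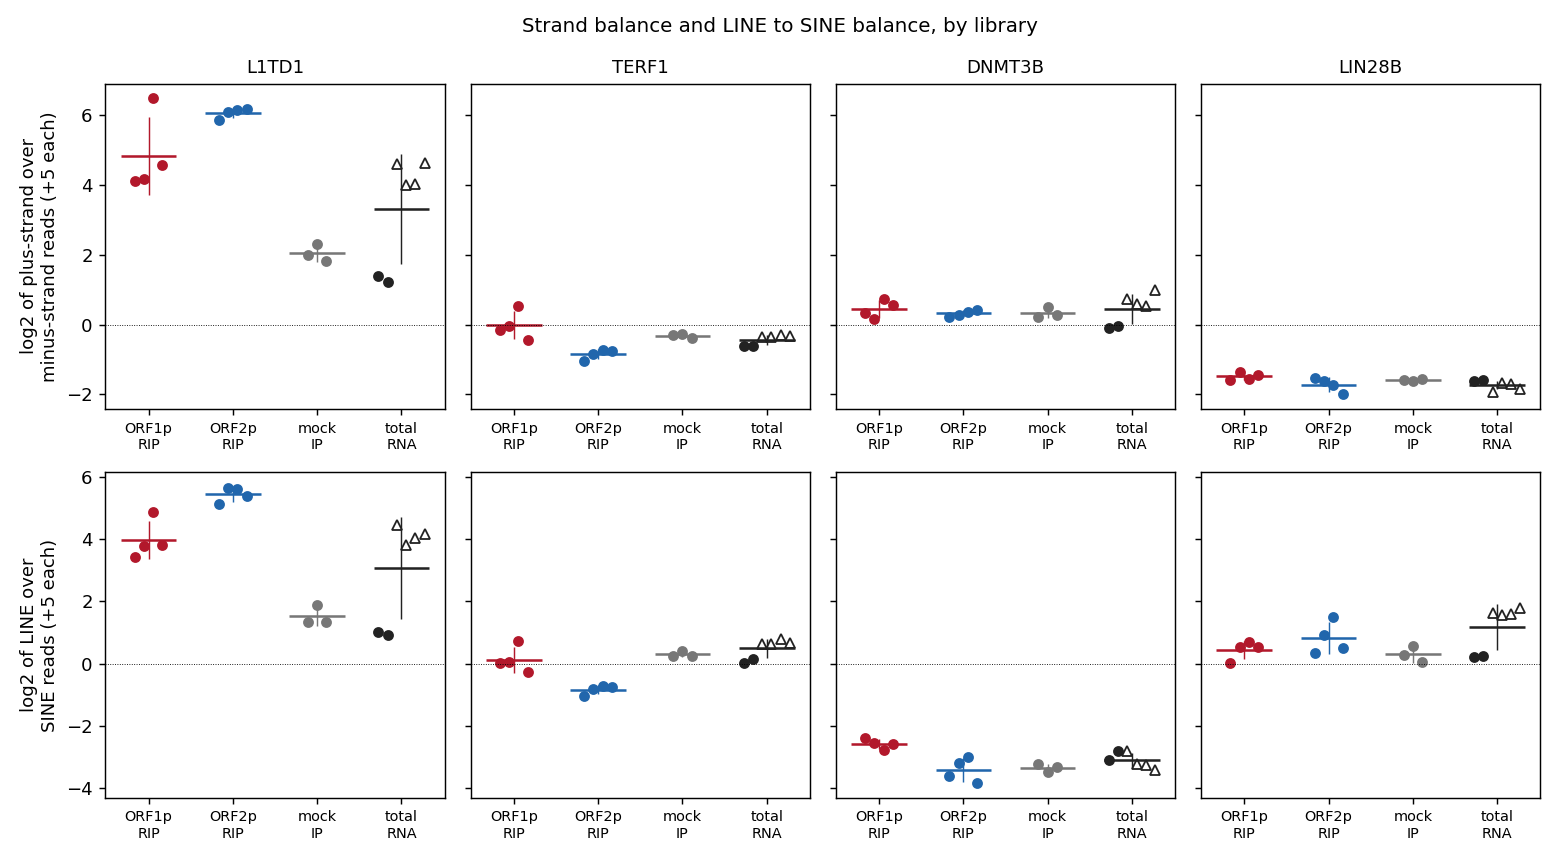
Strand balance (upper row) and LINE to SINE balance (lower row) per library on the log2 scale, 5 reads added to each part, with the mean as a horizontal line and ±1 SD as a vertical one. Triangles are total RNA of series bl. The L1TD1 balances of both RIPs lie above those of the mock IP, and total RNA of series bl lies above series b.

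The LINE to SINE balance, tested in the same way over 7055 spans, is given next. In L1TD1 it was 3.98 ± 0.62 in the ORF1p RIP, 5.44 ± 0.23 in the ORF2p RIP and 1.52 ± 0.33 in the mock IP. Total RNA had 0.96 in series b and 4.12 in series bl, so the limit given for the strand balance holds here too. The difference of ORF2p RIP over mock IP was 3.92 ± 0.67 (limma adjusted p = 0.000415, 10.3% of spans passing). That of ORF1p RIP over mock IP was 2.46 ± 0.67 (limma adjusted p = 0.0165, 12.7% passing), and without ORF1p RIP replicate 3 it was 2.16 and did not pass (limma adjusted p = 0.0551). ORF2p RIP over ORF1p RIP was 1.46 ± 0.62 (limma adjusted p = 0.119, 16.8% passing). Leaving out the leading L1MEd copy gave 3.87, 2.39 and 1.48 in the same order. That setting keeps the longer L1MEd and the HAL1ME copies, so it cannot show whether the balance rests on the leading LINE copies. In ORF2p RIP replicate 1, 2662 CPM remained without the leading repeat and 151.7 CPM without the leading 3. The balance was not fitted without all 3.

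In TERF1 the LINE to SINE balance was 0.13 ± 0.42 in the ORF1p RIP, -0.84 ± 0.14 in the ORF2p RIP and 0.29 ± 0.09 in the mock IP. ORF2p RIP over mock IP was -1.13 ± 0.27 (limma adjusted p = 0.0083) and ORF2p RIP over ORF1p RIP -0.96 ± 0.25 (limma adjusted p = 0.00981). Without AluSg they turned to 2.46 and 1.63 (limma adjusted p = 5.12e-06 and 0.000164). As for the strand balance, these values restate the level of L1PA16, the LINE copy that then leads the span. ORF1p RIP over mock IP was -0.17 ± 0.27 (limma adjusted p = 0.83).

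DNMT3B had few LINE reads, and its balance was -2.59 ± 0.16 in the ORF1p RIP, -3.41 ± 0.38 in the ORF2p RIP and -3.34 ± 0.12 in the mock IP. ORF2p RIP over ORF1p RIP was -0.82 ± 0.23 (limma adjusted p = 0.0169). With 1 read added in place of 5 it was -0.48 and did not pass, and with only repeats at or above the median divergence it was 0.27. ORF1p RIP over mock IP was 0.76 ± 0.25 (limma adjusted p = 0.0516). In LIN28B the differences of ORF1p RIP and ORF2p RIP over mock IP were 0.15 ± 0.38 and 0.52 ± 0.38, and none passed.

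Differences from total RNA moved with its series. In L1TD1 the strand balance of ORF2p RIP over total RNA was 2.76 ± 0.61 (limma adjusted p = 0.002, 28.6% of spans passing), 4.76 within series b and 1.76 within series bl. That of ORF1p RIP over total RNA was 1.52 ± 0.61 (limma adjusted p = 0.0681, 29.7% passing), 3.53 within series b and 0.52 within series bl. Mock IP over total RNA was -1.27 ± 0.67 (limma adjusted p = 0.407, 1.28% passing), 0.73 within series b and -2.27 within series bl. In the LINE to SINE balance, ORF2p RIP over total RNA was 2.37 ± 0.57 in L1TD1 (limma adjusted p = 0.0042) and -1.32 ± 0.23 in TERF1 (limma adjusted p = 0.000261), with 26.3% of spans passing. With both series together, the other TERF1, DNMT3B and LIN28B differences from total RNA did not pass in either balance, nor did those of ORF1p RIP or mock IP in L1TD1. Within a series several did. The shares of spans that passed in the LINE to SINE balance were 32.7% for ORF1p RIP and 0.0283% for mock IP.

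Within series bl, the LINE to SINE balance of LIN28B was -1.20 for ORF1p RIP, -0.83 for ORF2p RIP and -1.35 for mock IP over total RNA (limma adjusted p = 6.7e-05, 0.00232 and 0.000111). Within series b the same differences were 0.22, 0.60 and 0.08, and none passed. In L1TD1 the LINE to SINE balance of ORF1p RIP over total RNA was 3.01 within series b (limma adjusted p = 1.89e-06) and -0.15 within series bl (0.591). That of mock IP over total RNA was 0.56 within series b (0.633) and -2.60 within series bl (limma adjusted p = 1.57e-06), and that of ORF2p RIP passed in both, with 4.48 and 1.32. The L1TD1 strand balance passed within series b for ORF1p RIP (limma adjusted p = 1.58e-05) and within series bl for mock IP (0.000293), at the values above.

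In TERF1 the LINE to SINE balance of ORF1p RIP over total RNA was 0.04 within series b and -0.56 within series bl (limma adjusted p = 0.928 and 0.0073). Its strand balance was 0.59 within series b for ORF1p RIP (0.0287) and -0.51 within series bl for ORF2p RIP (0.00959). In DNMT3B the LINE to SINE balance of ORF1p RIP over total RNA was 0.37 within series b and 0.59 within series bl (limma adjusted p = 0.273 and 0.00671). The DNMT3B strand balance turned its sign between series: 0.53 and -0.26 for ORF1p RIP (0.0187 and 0.138) and 0.40 and -0.39 for ORF2p RIP (0.0851 and 0.0242), series b before series bl. Without Tigger7 it was 0.67 for ORF1p RIP and 0.66 for ORF2p RIP over total RNA (limma adjusted p = 0.00137 and 0.002). In LIN28B the strand balance of ORF1p RIP over total RNA was 0.30 within series bl (limma adjusted p = 0.0498).

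Repeats in the spans of related genes were summed in the same way. The lists were chosen with results of these data known. Over all 16522 spans, 34.0% were higher and 21.9% lower in ORF1p RIP over mock IP, 12.6% and 7.38% in ORF2p RIP over mock IP, and 22.9% and 32.9% in ORF2p RIP over ORF1p RIP. Of 20 other pluripotency genes 15 were fitted. Among those not fitted, SOX2, UTF1 and KLF4 have no summed repeats, and LEFTY1 had too few reads. In ORF1p RIP over mock IP, 3 were higher and 9 lower (median -1.57), and in ORF2p RIP over mock IP 2 were higher and 2 lower (median -0.64). The repeats of NANOG, a homeobox factor, averaged 2.81 CPM in the ORF1p RIP, 27.9 CPM in the ORF2p RIP and 38.0 CPM in the mock IP. Those of POU5F1, which encodes OCT4, averaged 206.1, 12.2 and 23.1 CPM, with the ORF1p RIP highest.

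Of the DNA methylation genes 6 of 7 were fitted, with 1 higher (TET2) and 3 lower (DNMT3A, UHRF1 and TET1) in ORF1p RIP over mock IP, and 0 in either direction in ORF2p RIP over mock IP. Repeats in DNMT3A, the other new-methylation enzyme, averaged 8.0 CPM in the ORF1p RIP, 19.9 CPM in the ORF2p RIP and 22.0 CPM in the mock IP. All 9 genes of let-7 control were fitted, with 4 higher and 0 lower in ORF1p RIP over mock IP. LIN28A, a close relative of LIN28B, averaged 91.2, 22.6 and 42.4 CPM, higher in the ORF1p RIP where LIN28B was lower. Of the shelterin and telomere genes 4 of 7 were fitted, with 3 higher (TERF2IP, POT1 and TNKS) and 0 lower in ORF1p RIP over mock IP, and 0 called in ORF2p RIP over mock IP. TERF2, which binds telomeres as TERF1 does, averaged 70.8, 32.1 and 43.2 CPM.

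As a check of the cell type, repeats in the embryonal carcinoma markers NANOG, LIN28A, DPPA4, TDGF1, ESRG and PODXL averaged 27.7 to 2645 CPM in total RNA, and those in POU5F1 11.96 CPM. Repeats in the endoderm, mesoderm, neuroectoderm and trophoblast markers AFP, GATA6, TBXT, HAND1, PAX6, NES, CDX2 and CGA averaged at most 0.052 CPM there. GATA4 and PDGFRA averaged 3.21 and 4.96 CPM, MEIS2 4.13 CPM and TFAP2C 2.27 CPM. These values are of total RNA alone and do not check the cells of the ORF1p RIP. There MEIS2 averaged 556.8 CPM and TFAP2C 0.098 CPM, against 15.9 and 4.2 CPM in the mock IP. GATA4 and PDGFRA averaged 6.7 and 12.8 CPM there, against 3.6 and 6.3 CPM. Of 7 embryonal carcinoma markers fitted, 3 were higher and 3 lower in ORF1p RIP over mock IP. The cause of these differences was not tested.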

How the data were processed

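The authors deposited 1 table of estimated counts per repeat locus. Alignment with STAR to hg38 is per the submitters' processing notes, and the counter and its use of strand are not given in the sources used here. Of its value columns 17 belong to these libraries, and 43 others were not used. The members and all gene lists were chosen with earlier results of these data known. CPM used library totals and TMM factors from the table summed by subfamily (1074 subfamilies). Single repeats and repeats summed over gene spans were fitted with edgeR 4.0.16 (quasi-likelihood test, rounded counts, min.count 50) in R 4.3.3. Balances were tested with limma 3.58.1 over spans with a mean of at least 50 reads in each part. P-values were Benjamini-Hochberg adjusted over all features fitted. Scripts were tested on simulated data. Alternatives included DESeq2 1.42.0, other filters and scalings, and leaving out each library. Repeats are named where they are among the 4 with the highest mean level of a region, or have its highest or lowest change of either RIP over mock IP, and others are said to be chosen after their values were seen. Gene names of spans come from RefSeq. Replicate numbers of the titles gave no clear pairing: of 21 same-numbered pairs, correlations of deviations ran from -0.454 to 0.433 and 10 were over 0.1. The descriptions number the total RNA libraries otherwise than the titles. Pairing by those numbers was not checked, so the libraries may still be paired.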

Additional observations from a re-analysis of the deposited data

Results flagged for a closer look

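Among 84 groups of libraries tested for a library far from its partners, 3 were found. Chance alone gives about 1 in 20 groups where groups are independent, and the count by itself is no more than that. These groups share their libraries and are not independent, so nothing more is read from the count. All 3 are ORF1p RIP replicate 3, the library that also stood apart in its strand share. The longer L1MEd copy of L1TD1 had 31.3 CPM there, with the nearest of the other ORF1p RIP libraries at 10.41 CPM. The L1PA16 copy of TERF1 had 95.85 CPM, with the nearest at 41.85 CPM. The L2 copy of LIN28B at chr6:104995157-104995575 had 6.07 CPM, with the nearest at 2.028 CPM. The cause was not tested.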

How the results depend on the processing

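Log2 values are named by balance or level, and counts are of members. The shares called over all repeats under each setting are not given here, so nothing is read from the counts. Scaled by library totals, level changes were -0.14 (ORF2p RIP over mock IP) and 0.19 (ORF2p RIP over total RNA) in DNMT3B, 2.95 (ORF2p RIP over mock IP) in L1TD1, and 2.32, 2.58 and 0.27 (ORF2p RIP over mock IP, ORF2p RIP over total RNA, mock IP over total RNA) in TERF1. In LIN28B they were -1.23 and -1.62 (ORF1p RIP over mock IP and total RNA), 0.28 (ORF2p RIP over ORF1p RIP), and -0.95 and -1.33 (ORF2p RIP over mock IP and total RNA). Counts with library totals were 0 higher and 5 lower in mock IP over total RNA and 26 lower in ORF2p RIP over total RNA. DESeq2 gave 1 higher and 5 lower in mock IP over total RNA and 26 lower in ORF2p RIP over mock IP. With min.count 100, which fits fewer repeats, counts were 43 higher and 0 lower in ORF2p RIP over ORF1p RIP, 18 higher and 7 lower in ORF2p RIP over total RNA, 44 and 46 lower in ORF1p RIP over mock IP and total RNA, 7 lower in ORF2p RIP over mock IP and 2 lower in mock IP over total RNA. With min.count 20 more members are fitted than the 98 of the main fit. Counts then were 124 higher in ORF2p RIP over ORF1p RIP, 137 and 148 lower in ORF1p RIP over mock IP and total RNA, 30 and 37 lower in ORF2p RIP over mock IP and total RNA, and 0 lower in mock IP over total RNA.

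With repeats at or above the median divergence, level changes were -4.02 in DNMT3B (ORF1p RIP over mock IP), 3.61 in L1TD1 (ORF2p RIP over mock IP), and -1.64, -1.12 and -0.49 in LIN28B (ORF1p RIP, ORF2p RIP and mock IP over total RNA). In TERF1 they were -2.03 and -1.93 (ORF1p RIP over mock IP and total RNA), 2.14 (ORF2p RIP over ORF1p RIP), 0.11 and 0.21 (ORF2p RIP over mock IP and total RNA) and 0.1 (mock IP over total RNA). The LINE to SINE balances then were 0.84, 0.27 and 1.11 in DNMT3B (ORF1p RIP over mock IP, ORF2p RIP over ORF1p RIP, ORF2p RIP over mock IP), 2.39 in L1TD1 (ORF2p RIP over ORF1p RIP), and 0.9, 0.22, 0.8 and 1.12 in TERF1 (ORF1p RIP over total RNA, then ORF2p RIP over ORF1p RIP, mock IP and total RNA). The strand balances were 2.01 in L1TD1 (ORF2p RIP over ORF1p RIP), and 0.97 in TERF1 (ORF1p RIP over mock IP) with 0.2, 1.17 and 1.16 (ORF2p RIP over ORF1p RIP, mock IP and total RNA). Without the leading repeat, TERF1 had LINE to SINE balances of 0.82, 1.63, 2.46 and 2.45 in the order above, and strand balances of 1.13, 1.6, 2.73 and 2.98. The strand balance of DNMT3B in ORF2p RIP over total RNA was 0.66. In TERF1 both settings leave out AluSg by construction. For the moves in the other spans the cause was not tested.

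Within total RNA series b, level changes over total RNA were -4.12, 0.23 and 0.06 in DNMT3B and -2.97, 3.33 and 0.06 in L1TD1 (ORF1p RIP, ORF2p RIP, mock IP), and 0.3 in TERF1 (mock IP), with 0 higher and 0 lower in mock IP over total RNA. Within series bl counts were 44 higher in ORF2p RIP and 29 higher and 7 lower in mock IP, each over total RNA. The shares over all repeats within series bl are not given here, so nothing is read from these counts. The replicate block used the replicate numbers of the titles, which gave no clear pairing. With it the LINE to SINE balance of L1TD1 in ORF2p RIP over ORF1p RIP was 1.46 and passed. Mock IP over total RNA then had 0 higher and 0 lower, and ORF1p RIP over mock IP kept 0 higher and 87 lower. With only the 2 groups compared, the LINE to SINE balances of DNMT3B in ORF1p RIP over mock IP (0.76) and L1TD1 in ORF2p RIP over ORF1p RIP (1.46) and the strand balances of L1TD1 in ORF2p RIP over ORF1p RIP (1.23) and TERF1 in ORF2p RIP over mock IP (-0.52) passed, and mock IP over total RNA had 0 higher and 0 lower. With at least 200 reads the LINE to SINE balance of DNMT3B in ORF1p RIP over mock IP (0.76) passed, and with 1 read added that of ORF2p RIP over ORF1p RIP (-0.48) did not.

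As single libraries were left out, LINE to SINE balances ran from 0.69 to 0.83 (DNMT3B, ORF1p RIP over mock IP, passing without ORF1p RIP or ORF2p RIP replicate 3 or total RNA replicate 1 or 2), -0.96 to -0.68 (DNMT3B, ORF2p RIP over ORF1p RIP, lost without ORF1p RIP replicate 1 or ORF2p RIP replicate 1 or 4), 2.16 to 2.64 (L1TD1, ORF1p RIP over mock IP, lost without ORF1p RIP replicate 3 or mock IP replicate 1 or 3) and 1.28 to 1.76 (L1TD1, ORF2p RIP over ORF1p RIP, passing without total RNA replicate 1 or 2). The strand balance of TERF1 in ORF2p RIP over mock IP ran from -0.56 to -0.46 and passed without ORF1p RIP replicate 3. The strand balance of L1TD1 in ORF1p RIP over total RNA passed with the replicate block (2.03) and with 1 read added (2.07). Counts ran from 0 to 12 higher and 0 to 5 lower in mock IP over total RNA, 0 to 1 lower in ORF2p RIP over ORF1p RIP, and 8 to 21 lower in ORF2p RIP over mock IP (9 without ORF2p RIP replicate 3, 8 without mock IP replicate 3 and 11 without mock IP replicate 2). The few minus-strand reads of L1TD1 in the ORF1p RIP limit its strand balance. Among the results and settings run, 614 of 648 strand balances, 605 of 648 LINE to SINE balances, 523 of 552 levels, 1730 of 1776 changes of named repeats and 229 of 288 counts kept their direction and side of the threshold, or stayed within the spread or 1.5 times the count. Of the changes of named repeats, 22 came to pass the threshold and 24 no longer passed it.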
